A study of Mus musculus with 3 samples.

Results

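The genes described here are 36 genes of mitosis and the kinetochore, named as a list and found by symbol among the 32285 genes of the count matrices; all 36 were found, and the rule itself uses no measured value. They hold kinases and cyclins (*Cdk1*, *Ccna2*, *Ccnb1*, *Ccnb2*, *Plk1*, *Aurka*, *Aurkb*, *Bub1*, *Bub1b*), kinetochore and centromere proteins (*Cenpa*, *Cenpe*, *Cenpf*, *Knl1*, *Ndc80*, *Nuf2*), and shugoshins (*Sgo1*, *Sgo2a*). They also hold motors and spindle proteins (*Kif11*, *Kif20a*, *Kif23*, *Kif2c*, *Tpx2*, *Nusap1*, *Aspm*, *Hmmr*, *Prc1*), partners of Aurora B (*Birc5*, *Cdca8*), cytokinesis factors (*Anln*, *Ect2*, *Racgap1*), anaphase factors (*Cdc20*, *Ube2c*), and *Mki67*, *Top2a* and *Pimreg*. The measurements are UMI counts (molecules told apart by a unique molecular identifier) from single B cells of the spleen; the donors were wild-type BXD2 females, whose recombinant inbred background leads to lupus-like autoimmunity.

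Every animal received R848, which activates TLR7; the dose, for a body weight of 20 g, was 40 µg. The IL-4+R848 group had been injected 2 hours before with IL-4 (5 µg) complexed to anti-IL-4 antibody (25 µg), and the R848 group with 25 µg of the antibody alone, so both groups carry R848 and the antibody. The doses were given again after 2 days and the spleens were collected 2 days after that, from 3 mice per treatment. B cells were enriched by negative selection, marked by treatment with hashtag antibodies and pooled into 3 libraries of the 5′ end of transcripts, called sets 1 to 3, each holding both treatments. The age of the mice and which mice entered which set are not given in the labels, so the p-values below measure the spread between 3 sets, which may be partly technical.

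In a dividing cell these genes are switched on in order. In resting cells the DREAM complex keeps them silent through a promoter element called the cell cycle genes homology region (CHR), and late in the cycle B-Myb (*Mybl2*) and *Foxm1* activate them, often from promoters with CCAAT boxes. Their proteins condense chromosomes, tie them to the spindle at the kinetochore, hold anaphase back until every chromosome is attached, and split the cell. In the spleen, germinal center B cells divide rapidly while they mutate their antigen receptors, and plasmablasts are the antibody-secreting cells that still divide.

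Promoters of 31 of the 36 genes were found in RefSeq (assembly GRCm38.p6) as windows from 250 bases before to 50 bases after the start, 34 windows in all because *Ect2*, *Prc1* and *Sgo2a* have 2 each. The CHR letters TTTGAA, or TTCAAA on the other strand, were in 25 of the 34 windows (73.5%) against 17.9% of all 32851 RefSeq promoters of that length. CCAAT, or ATTGG on the other strand, was in 27 (79.4%) against 37.4%, and both motifs in 21 against 6.95%. The 2 motifs can share an end letter at most. The 2 E2F forms searched, TTTGGCGC and TTTCCCGC on either strand, were in 0 of the 34 windows against 0.514% and 1.07% of all promoters. The CHR letters were not in the windows of 8 genes, namely *Ccnb1*, *Cenpe*, *Bub1*, *Nusap1*, *Birc5*, *Nuf2*, *Sgo2a* and *Sgo1*. A match describes the letters only. The part of the window around the start is shown on the gene's strand for 9 genes, with every CHR and CCAAT match in capitals. *Ube2c*, *Cdc20*, *Cdk1* and *Birc5* are shown because they were higher in dividing plasmablasts than in dividing germinal center cells, and *Kif23*, *Ccnb2* and *Cenpe* because they were lower. *Cenpf* and *Top2a* are shown because *Cenpf* was among the steepest across the dividing cells and *Top2a* among the least steep.
Ube2c, chr2:164769829-164769927, plus strand: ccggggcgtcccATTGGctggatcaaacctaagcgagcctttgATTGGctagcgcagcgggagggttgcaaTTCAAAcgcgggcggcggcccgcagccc
Cdc20, chr4:118437334-118437443, minus strand: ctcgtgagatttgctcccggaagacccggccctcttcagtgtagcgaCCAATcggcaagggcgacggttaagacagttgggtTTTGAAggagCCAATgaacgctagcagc
Cdk1, chr10:69352909-69353012, minus strand: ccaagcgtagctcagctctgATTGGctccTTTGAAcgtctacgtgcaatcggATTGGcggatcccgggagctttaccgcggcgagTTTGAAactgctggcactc
Birc5, chr11:117849137-117849246, plus strand: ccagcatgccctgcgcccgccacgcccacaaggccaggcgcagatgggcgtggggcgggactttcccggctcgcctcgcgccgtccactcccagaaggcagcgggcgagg
Kif23, chr9:61946790-61946899, minus strand: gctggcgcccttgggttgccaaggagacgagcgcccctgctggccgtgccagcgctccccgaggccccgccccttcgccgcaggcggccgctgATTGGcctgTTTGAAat
Ccnb2, chr9:70421545-70421654, minus strand: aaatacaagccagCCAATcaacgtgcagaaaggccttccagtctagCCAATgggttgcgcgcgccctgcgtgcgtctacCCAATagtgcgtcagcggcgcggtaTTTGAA
Cenpe, chr3:135212463-135212566, plus strand: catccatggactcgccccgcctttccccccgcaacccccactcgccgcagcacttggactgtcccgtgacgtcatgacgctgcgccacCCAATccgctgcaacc
Cenpf, chr1:189688077-189688186, minus strand: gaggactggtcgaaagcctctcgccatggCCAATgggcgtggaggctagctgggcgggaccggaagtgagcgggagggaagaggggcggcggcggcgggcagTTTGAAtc
Top2a, chr11:99024180-99024289, minus strand: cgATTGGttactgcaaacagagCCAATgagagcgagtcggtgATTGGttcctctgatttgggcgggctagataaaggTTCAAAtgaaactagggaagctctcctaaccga
Both directions of the plasmablast comparison hold a promoter with and a promoter without the CHR letters: *Birc5* and *Cenpe* lack them, and *Ube2c*, *Cdc20*, *Cdk1*, *Kif23* and *Ccnb2* hold them.

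The sets held 14519, 11389 and 14222 barcodes with 96866964 to 107244246 gene UMIs each, and 34775 B cells were kept, 5622 to 7468 per set of R848 and 4554 to 5062 of IL-4+R848. R848 cells had medians of 4435 to 5930 UMIs by set and IL-4+R848 cells 5176 to 6994. A cell was counted as dividing when at least 0.5% of its UMIs outside immunoglobulin genes fell on 36 replication and 57 other mitosis genes, none of them among the 36; 2512 B cells did, and 477 B cells lay between 0.4 and 0.6%. The classes were germinal center B cells, plasmablasts, naive B cells and other cycling B cells. The first 2 were clusters named by markers, formed without the listed cell cycle genes. Naive cells lay in follicular-like clusters below the 0.5% limit, and other cycling cells past it outside the first 2 classes. Clusters still differed in division: 83.47% of plasmablast cluster 16 was dividing, against 1.5%, 2.71% and 15.84% of clusters 9, 11 and 21. In the unnamed cluster 13 it was 82.42%. The classes are thus not independent of the cell cycle. The naive cells of the 2 treatments lay mostly in different clusters: IL-4+R848 cells were 4.74% of cluster 0 and 22.34% of cluster 4, but 97.25%, 99.73% and 99.41% of clusters 1, 3 and 10. Of 7 naive markers, clusters 0 and 4 had 7 and 6 raised over the other clusters, and clusters 1, 10 and 3 had 3, 3 and 1. Cluster 3 took its name from the level of the markers. The naive comparison is thus largely one between clusters. Of the other cycling cells, 72.8% lay in 1 unnamed cluster led by cell cycle genes and 13.3% in 1 cluster led by B cell precursor genes. Levels below are CPM, counts per 1e6 UMIs, taken outside immunoglobulin genes. The reason is that UMIs outside immunoglobulin genes were 57.4 to 59.6% of plasmablast UMIs by set and 98.0 to 98.3% of germinal center UMIs. UMIs of the 5′ end count molecules, whatever the length of the transcript. Log2 fold changes come from edgeR's own scaling of all UMIs, immunoglobulin genes included. They can thus differ from the ratio of the printed levels, also in direction.

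Across all B cells, all 36 genes were lower with IL-4: for each of them, every IL-4+R848 set lay below every R848 set. The share of all genes that separate in this way was not counted. The summed level of the 36 was 1515, 1844 and 1511 CPM in the R848 sets and 1054, 917.9 and 1017 CPM in the IL-4+R848 sets. That is 1623 ± 191 against 996.1 ± 70.2 (SD, n = 3). In edgeR's quasi-likelihood test, with Benjamini-Hochberg adjustment over 12793 genes and calls at an adjusted p under 0.05, 30 of the 36 fell and 0 rose. Of all genes tested, 4.53% fell and 5.78% rose (10.3% in either direction). The median log2 fold change of the 36 was -0.55, with a range from -0.72 to -0.36, and that of all genes was 0.00.

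**Figure D1:**
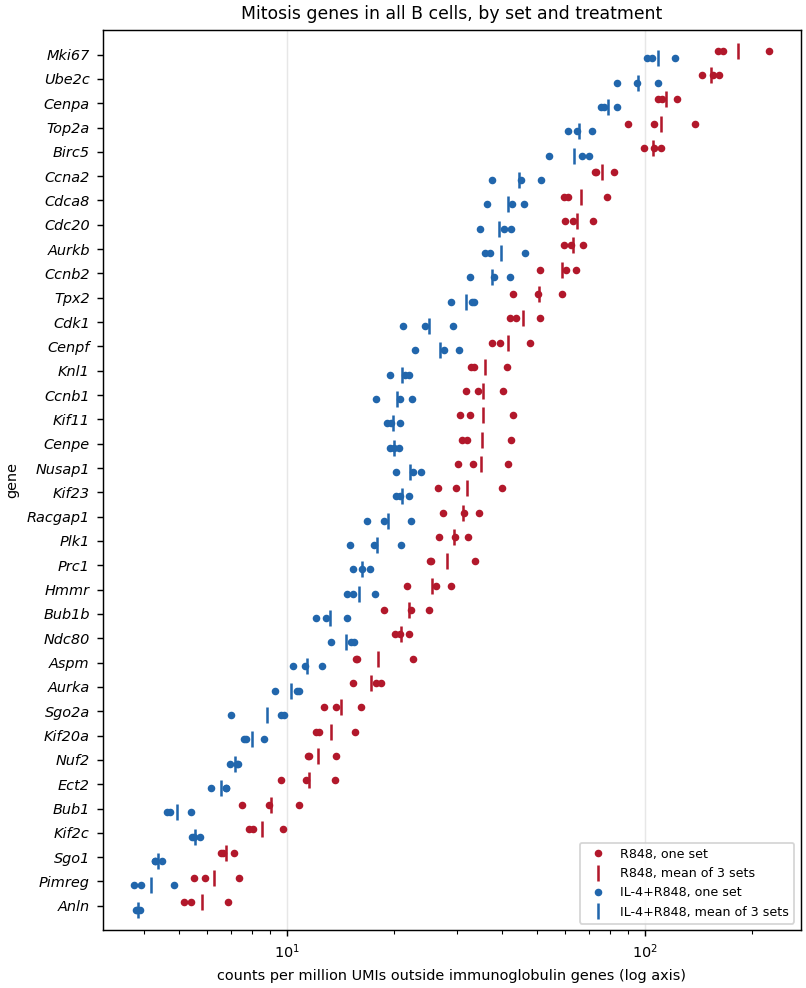
Level of each of the 36 genes in all B cells, in CPM outside immunoglobulin genes on a log axis; points are single sets and ticks the mean of 3 sets, by treatment. For every gene the 3 IL-4+R848 points lie below the 3 R848 points.

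Among the kinases and cyclins, *Cdk1*, the kinase that drives entry into mitosis, had 42.2, 51.05 and 43.71 CPM in the R848 sets and 29.25, 21.15 and 24.43 CPM with IL-4. The groups did not overlap and *Cdk1* fell by 0.72 on the log2 scale (SE 0.12, edgeR adjusted p = 0.0137). Its mitotic partner *Ccnb1* fell by 0.65 (SE 0.11, edgeR adjusted p = 0.0154), from 31.76, 40.21 and 34.23 to 20.76, 17.81 and 22.42 CPM. *Ccna2*, the cyclin of S and G2 phase, fell by 0.61, *Ccnb2* by 0.49, and the mitotic kinases *Plk1*, *Aurka* and *Aurkb* by 0.57, 0.59 and 0.51. *Bub1*, a kinase of the spindle checkpoint, had the lowest log2 fold change of the 36, -0.72 (SE 0.14, edgeR adjusted p = 0.0235), from 7.482, 10.83 and 8.899 to 5.422, 4.733 and 4.634 CPM.

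The kinetochore genes spanned the range. *Nuf2*, a subunit of the NDC80 complex that binds microtubules, fell by 0.62 (SE 0.09, edgeR adjusted p = 0.0077), from 11.52, 13.76 and 11.49 to 7.257, 6.926 and 7.325 CPM. Its partner *Ndc80* fell by 0.36, the smallest change of the 36, from 20.79, 21.93 and 20.05 to 15.09, 13.33 and 15.43 CPM. *Knl1*, the scaffold on which the checkpoint assembles, fell by 0.62, *Cenpe*, a kinetochore motor, by 0.65, and *Cenpa*, the histone H3 variant of centromeres, by 0.39. *Cenpf* had -0.48, with an edgeR adjusted p = 0.0594.

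*Mki67*, which coats mitotic chromosomes and is the usual marker of proliferating cells, had 160.0, 222.5 and 165.5 CPM with R848 and 121.5, 101.4 and 104.9 CPM with IL-4, a fall of 0.59 (SE 0.13, edgeR adjusted p = 0.0318). *Top2a*, the topoisomerase that untangles sister chromatids, fell by 0.61 and *Ube2c*, the ubiquitin-conjugating enzyme of the anaphase-promoting complex, by 0.52. *Cdc20*, that complex's activator, fell by 0.58 and *Birc5* (survivin) by 0.58. Set 2 had the highest R848 level of *Mki67*, *Top2a* and *Cdk1* and the lowest IL-4+R848 level of *Mki67* and *Cdk1*. The 6 genes that did not pass were *Anln*, *Aspm*, *Cenpf*, *Kif23*, *Pimreg* and *Sgo2a*, with log2 fold changes from -0.53 to -0.44.

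These calls depended on the number of sets and on which set was left out. Without set 1, 19 genes passed, and without set 2 or without set 3, 0 passed, with median log2 fold changes of -0.64, -0.41 and -0.61. In the 3-set fit all 36 had an unadjusted p under 0.05, as did 3376 of all 12793 genes. With the set as a replicate block 23 passed, and the calls of *Mki67*, *Bub1*, *Plk1*, *Ccnb2*, *Ndc80*, *Tpx2*, *Nusap1*, *Racgap1* and *Cdca8* were lost; *Mki67* then stood at -0.58 (edgeR adjusted p = 0.072) and *Bub1* at -0.71 (edgeR adjusted p = 0.0553).

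Fewer cells were also counted as dividing with IL-4. The dividing limit rests on genes of the same program as the 36, many of which fell too. The falls are thus not independent, and the link between them was not tested. Cells past the dividing limit were 8.86, 10.05 and 7.51% of B cells in the R848 sets and 6.24, 4.52 and 4.76% with IL-4, a difference of -3.63 percentage points (exact permutation test, two-sided p = 0.1, the lowest that 3 sets against 3 allow). Dividing germinal center cells were 4.969, 5.603 and 3.415% of B cells with R848 and 2.94, 1.80 and 1.66% with IL-4. Dividing plasmablasts were 1.30, 1.44 and 1.93% against 1.62, 0.703 and 0.819%, where the groups overlap. Other cycling cells were 2.59, 3.01 and 2.17% against 1.68, 2.02 and 2.28%, which also overlap. Per 1000 B cells, the 36 genes gave a mean of 4954 UMIs in dividing germinal center cells with R848 and 2418 with IL-4, 1799 and 1243 in dividing plasmablasts, and 2688 and 1912 in other cycling cells. Dividing germinal center cells held 45.2% of all UMIs of the 36 genes with R848 and 35.2% with IL-4, although they were 4.66% and 2.13% of the cells.

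**Figure D2:**
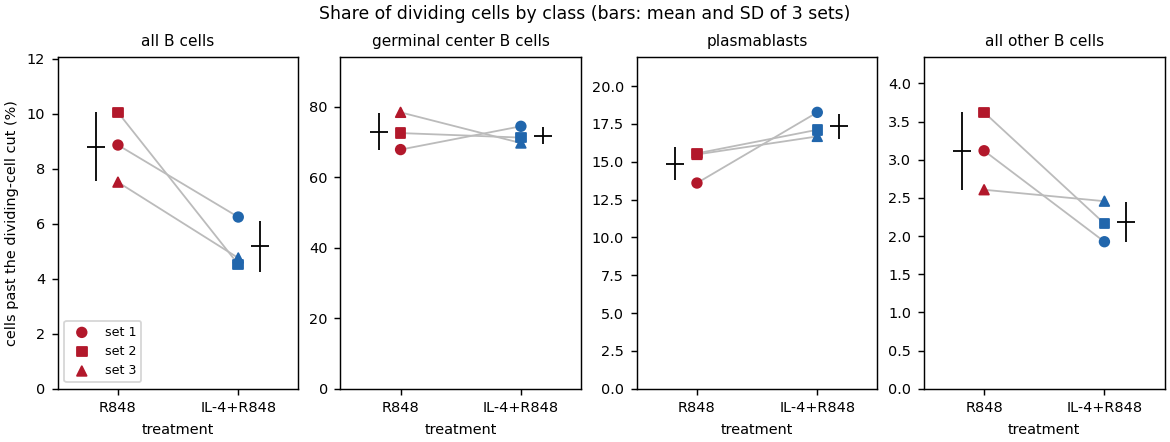
Percent of cells past the dividing-cell limit, by class and treatment, with 1 line and marker per set and bars for the mean and SD of 3 sets. The share is lower with IL-4 in every set for all B cells and for B cells outside germinal centers and plasmablasts, higher in every set for plasmablasts, and mixed for germinal center cells.

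The dividing share was also taken within each class, and the difference of its change between classes was not tested. Of germinal center B cells, 72.98 ± 5.30% were dividing with R848 and 71.85 ± 2.42% with IL-4 (SD, n = 3, exact permutation test, p = 0.8). With germinal center cells gated by surface GL7 the shares were 54.33, 60.51 and 64.34% against 38.21, 28.85 and 32.23%, which do not overlap. Of plasmablasts, 13.59, 15.55 and 15.48% were dividing with R848 and 18.26, 17.11 and 16.67% with IL-4, so each IL-4+R848 set was above each R848 set (exact permutation test, p = 0.1). With plasmablasts gated by surface CD138 the shares were 12.94, 12.31 and 15.49% against 17.77, 16.57 and 15.2%, where the groups overlap and set 3 was lower with IL-4. With the limit at 1% in place of 0.5% the plasmablast difference turned from 2.47 to -1.29 percentage points. Among all other B cells the share was 3.12, 3.62 and 2.61% against 1.93, 2.16 and 2.46% (exact permutation test, p = 0.1). Thinning every cell to 1500 UMIs left the mean shares at 70.23 and 69.81% in germinal center cells, 13.99 and 16.74% in plasmablasts, and 3.03 and 2.10% in the other B cells.

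The level of the 36 genes differed by class in 1 order under both treatments. All 36 were lowest in naive cells, and every plasmablast set lay above every naive set and every germinal center set above every plasmablast set for all 36. Other cycling cells had the highest mean for 35 genes with R848 and 36 with IL-4. For 26 and 27 of them every set lay above every germinal center set, and for the rest those neighbouring classes overlapped. The share of all genes whose sets lie wholly apart between these classes was not counted. With R848 the summed level was 164.0 ± 28.6 CPM in naive cells, 1906 ± 117 in plasmablasts, 5020 ± 544 in germinal center cells and 7026 ± 513 in other cycling cells (SD, n = 3). These classes come from RNA clusters and, for other cycling and naive cells, from the dividing limit, so the order is a description with no test. All other cycling cells are past that limit by definition, against means of 72.98% of germinal center cells and 14.87% of plasmablasts with R848. The part of this in the order was not tested. Restricted to dividing cells, plasmablasts and germinal center cells came close, at 5624 ± 121 and 5818 ± 614 CPM with R848 and 5593 ± 212 and 5638 ± 558 with IL-4. Both were selected by the same limit on genes of the same program, so this too is a description with no test.

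Within a class, few of the 36 passed the test. In germinal center B cells 0 of 36 were called (0.338% of 9764 genes were), with 0 at an unadjusted p under 0.05, beside 763 of all genes. The log2 fold changes of the 36 ran from -0.21 to 0.26 around a median of 0.00. *Cdk1* stood at 135.9, 160.9 and 136.5 CPM with R848 and 116.4, 129.9 and 128.2 with IL-4, a log2 fold change of -0.15 (SE 0.09). *Mki67* stood at 499.1, 696.3 and 529.1 against 553.6, 687.0 and 603.9 CPM, 0.16 (SE 0.12), and *Plk1* at 102.5, 107.7 and 103.8 against 87.84, 94.54 and 106.4. The 2 treatments overlapped for *Mki67* and *Plk1*, and for *Cdk1* they did not. In dividing germinal center cells alone, 0 of 36 were called (0.116% of 9487 genes were). Of the 36, 1 (*Cdc20* at -0.24) had an unadjusted p under 0.05, beside 639 of all genes. With germinal center cells gated by surface GL7 instead, 3 of the 36 fell (*Cdk1*, *Cdc20* and *Racgap1*), beside 1.97% of genes that fell, and the median log2 fold change of the 36 was -0.32. The dividing share of that gate was 59.7 ± 5.05% with R848 and 33.1 ± 4.74% with IL-4 (SD, n = 3), and 57.1% of its cells were in the RNA class; the part of these in the calls was not tested. With RNA classes, DESeq2 also called 0 of the 36 in germinal center, dividing germinal center, plasmablast and other cycling cells, and 0 of the 20 to which it gave an adjusted p in dividing plasmablasts.

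In plasmablasts 0 of 36 were called, as were 0 of all 10274 genes (0.0%), but 30 of the 36 had a positive log2 fold change, with a median of 0.15 against 0.00 for all genes. At an unadjusted p under 0.05 stood *Plk1* at 0.37, *Cdc20* at 0.34, *Cdca8* at 0.31, *Ube2c* at 0.34 and *Sgo2a* at 0.43, beside 496 of all genes. *Ube2c* had 202.7, 207.1 and 248.9 CPM with R848 and 272.5, 259.5 and 289.7 with IL-4, and *Cdca8*, a subunit of the chromosomal passenger complex, 51.68, 55.89 and 64.35 against 67.78, 76.78 and 66.6. For 5 of the 36 every IL-4+R848 set was above every R848 set, and for 0 below. How many of all genes separate in this way was not counted. In dividing plasmablasts alone, 0 of 36 were called (0.0364% of 8240 genes were), and the median was 0.02. *Plk1* at 0.29 was the 1 gene of the 36 with an unadjusted p under 0.05, beside 363 of all genes. Other cycling cells had 0 of 36 called (0.775% of 8643 genes were), a median of 0.10 and *Kif23* at 0.29 with an unadjusted p under 0.05, beside 761 of all genes. *Mki67* there was at 590.1, 720.4 and 714.8 CPM with R848 and 533.1, 806.7 and 715.4 with IL-4.

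**Figure D3:**
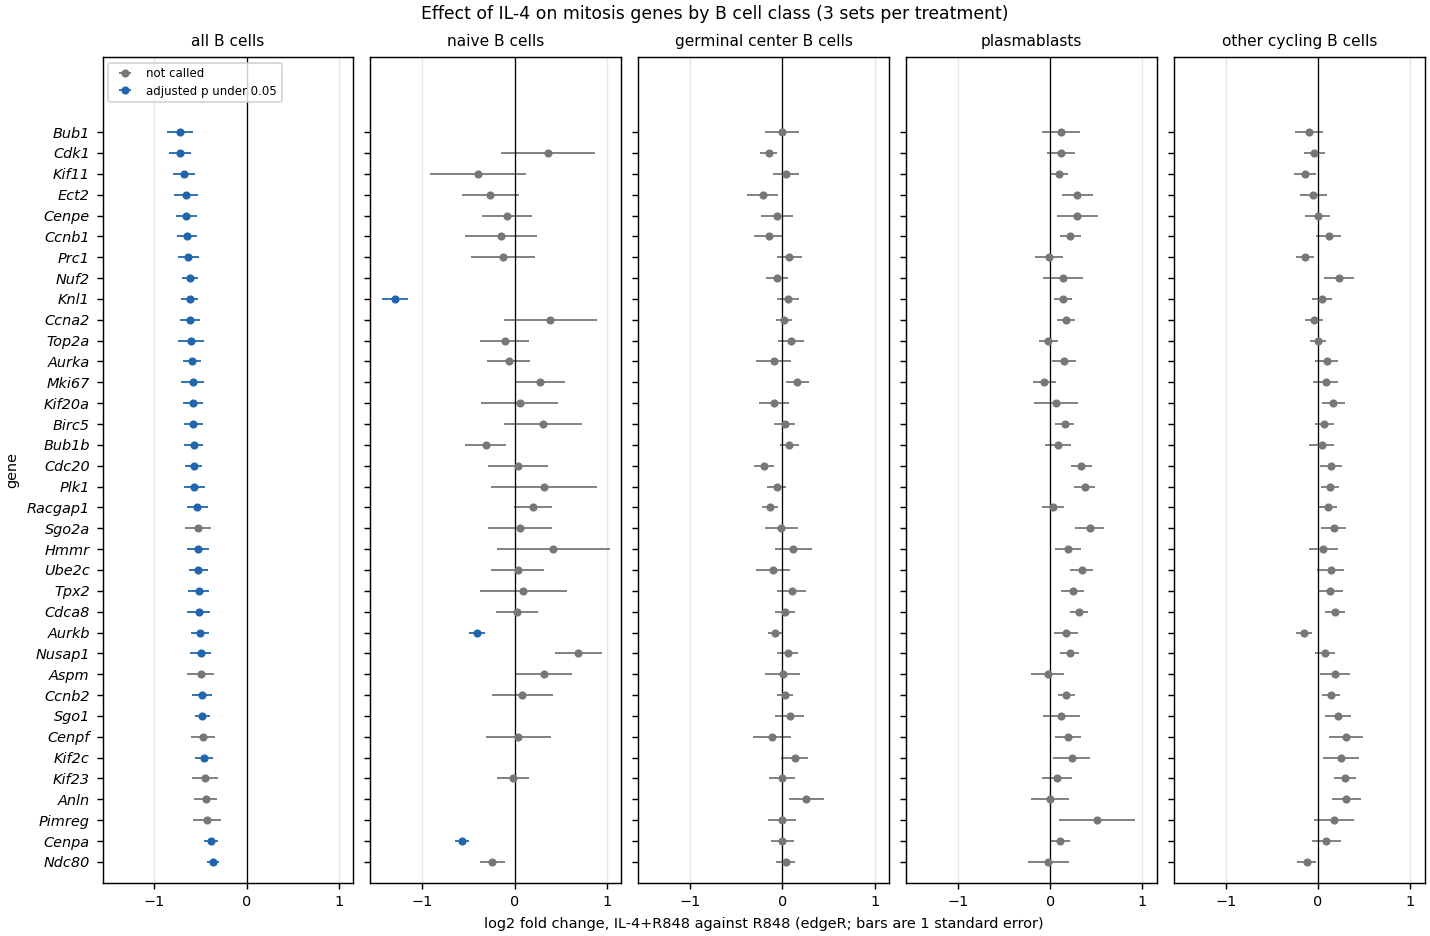
Log2 fold change of each gene, IL-4+R848 against R848, by B cell class, from edgeR with 3 sets per treatment; bars are 1 standard error and blue points have an adjusted p under 0.05. All points for all B cells are below 0 and 30 are blue, the germinal center, plasmablast and other cycling panels have none in blue, and the naive panel has *Knl1*, *Cenpa* and *Aurkb* in blue and blank rows for the 6 genes not tested.

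Naive cells held little RNA of most of the 36. As a share of the gene's own level in dividing germinal center cells, the naive level with R848 was highest for *Cenpa* at 20.4%, *Ndc80* at 16.4%, *Aurkb* at 10.4% and *Knl1* at 7.94%. *Ect2* and *Kif23* followed at 3.57% and 3.51%, and the lowest share was 0.442%. The filter on low counts passed 30 of the 36 in naive cells; *Anln*, *Bub1*, *Kif2c*, *Nuf2*, *Pimreg* and *Sgo1* did not pass. Of the 30, 3 fell and 0 rose, beside 8.2% of 11134 genes that fell and 8.61% that rose (16.8% in either direction), so the count is near the background.

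In naive cells *Knl1* (ENSMUSG00000027326, chr2:119047119-119105501, plus strand, GRCm38) had 8.99, 11.3 and 10.9 CPM in the R848 sets and 3.73, 4.37 and 3.66 CPM with IL-4, from 370 and 240 UMIs in all. The groups were far apart and *Knl1* fell by 1.30 on the log2 scale (SE 0.14, edgeR adjusted p = 1.18e-04). *Cenpa* (ENSMUSG00000029177, chr5:30666777-30674830, plus strand) had 49.44, 56.09 and 55.7 CPM with R848 and 33.5, 35.56 and 32.12 with IL-4, from 1908 and 2059 UMIs, and fell by 0.57 (SE 0.07, edgeR adjusted p = 4.65e-04). *Aurkb* (ENSMUSG00000020897, chr11:69045647-69051664, plus strand), the kinase of the chromosomal passenger complex, had 20.58, 20.06 and 20.5 against 14.68, 15.42 and 12.73 CPM and fell by 0.40 (SE 0.09, edgeR adjusted p = 0.00986). *Knl1* and *Cenpa* were called under each of 12 alternatives, including naive cells gated by surface IgD. *Aurkb* was called under 8 of 12: it was lost without set 1 (edgeR adjusted p = 0.0605), without set 3 (0.0729), with the IgD gate (0.259) and without clusters 3 and 10 (0.0874), the latter with cluster 1 still included. *Ndc80* was at 10.43, 9.12 and 10.17 against 7.02, 7.26 and 9.18 CPM, a change of -0.24 with an edgeR adjusted p = 0.256. With the set as a replicate block (same-set naive sums deviate together), *Nusap1*, a spindle-assembly protein, was also called, at 0.69 (edgeR adjusted p = 0.031, against 0.0933 without the block).

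Markers of other cells moved in the same naive sums. The 5 monocyte or macrophage markers, 5 of 5 detected, summed to 28.9 to 38.0 CPM with R848 and 7.52 to 12.4 with IL-4. The 5 erythroid markers summed to 10.7 to 15.6 CPM (3 detected) and 3.82 to 4.32 CPM (4 detected), and the 10 germinal center markers, all detected, to 296.7 to 322.8 and 236.1 to 266.7 CPM. Their part in the naive result was not tested.

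The difference in the IL-4 effect between classes was tested for each gene on the log2 scale, so changes in CPM were not compared. In 1 edgeR fit over the 4 classes with the set as a block, the log2 fold change of *Knl1* was higher by 1.34 (SE 0.14, adjusted p = 2.94e-05) in germinal center than in naive cells, by 1.44 (SE 0.15, adjusted p = 1.92e-05) in plasmablasts, and by 1.32 (SE 0.14, adjusted p = 1.71e-04) in other cycling cells. The last of these was lost without set 2 (edgeR adjusted p = 0.104). *Cenpa* was higher by 0.66 (SE 0.15, edgeR adjusted p = 0.0241) in plasmablasts than in naive cells, a call lost without the block and without any 1 of the sets. Against naive cells, 1, 2 and 1 of the 36 were thus called for germinal center cells, plasmablasts and other cycling cells, beside 2.76%, 1.86% and 0.497% of 11262 genes. For the 3 pairs among germinal center, plasmablast and other cycling cells 0 of 36 were called by edgeR, beside 0.0444%, 0.178% and 0.0888% of genes. DESeq2 called 0 as well, of 36, 36 and 32 with an adjusted p.

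Surface antibodies gave classes whose cell type does not rest on RNA, although the dividing limit within them does. A gate on CD138 for plasmablasts and on GL7, without CD138 or IgD, for germinal center cells left 452 and 918 dividing cells, of which 89.2% and 90.6% were in the matching RNA class. Between them, 17 of the 36 differed, 8 higher and 9 lower in dividing plasmablasts, beside 59.5% of 8605 genes (30.4% higher, 29.2% lower). The share is below the background, the median log2 fold change was -0.02 and that of all genes -0.01. This edgeR fit had set and treatment as terms, with 6 sums per class.

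The 8 genes higher in dividing plasmablasts were *Ube2c*, *Cdc20*, *Cdk1*, *Ccna2*, *Aurka*, *Birc5*, *Hmmr* and *Prc1*. *Ube2c* ran from 658 to 918 CPM (median 770) in dividing plasmablasts and from 407 to 635 (median 528) in dividing germinal center cells, with no overlap, and was higher by 0.72 (SE 0.10, edgeR adjusted p = 8.33e-05). *Cdc20* was higher by 0.60, at 252.0 to 358.1 against 194.2 to 256.0 CPM, which overlap slightly, and *Cdk1* by 0.52. *Ccna2* was higher by 0.48 (SE 0.07, edgeR adjusted p = 9.93e-05), at 332.3 to 368.9 (median 360.6) against 268.7 to 298.0 CPM (median 284.8), again without overlap. *Aurka*, the spindle pole kinase, was higher by 0.46, *Birc5* by 0.29, the spindle protein *Hmmr* by 0.29 and *Prc1*, which bundles the central spindle, by 0.24. *Hmmr* had nearly equal medians of 109.2 and 108.3 CPM, which are scaled otherwise than the fold changes. It was lost without the block and at a dividing limit of 1%. *Prc1*, with medians of 97.44 and 92.41 CPM, was called under 3 of 9 alternatives and lost, among others, without set 1 or set 2.

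The 9 genes lower in dividing plasmablasts were led by *Pimreg* and *Kif23*. *Pimreg*, a regulator of the metaphase to anaphase step, ran from 1.52 to 14.9 CPM (median 9.51) in plasmablasts and from 22.3 to 28.3 (median 24.4) in germinal center cells and was lower, at -1.21 (SE 0.19, edgeR adjusted p = 2.29e-04). Its plasmablast values rest on 62 UMIs with R848 and 28 with IL-4, with 1 UMI in the lowest sum. *Kif23*, the motor of the central spindle, was at -0.89 (SE 0.10, edgeR adjusted p = 1.78e-05), with 33.4 to 74.1 (median 56.3) against 108 to 141 CPM (median 113). Neither gene overlapped between the classes. *Cenpe* was at -0.66, *Bub1* at -0.53, *Cdca8* at -0.39, *Knl1* at -0.38, *Bub1b* at -0.35, *Ccnb2* at -0.31 and *Nuf2* at -0.30. Leaving out 1 set ended the call of *Bub1b* (set 2), *Ccnb2* (set 3) and *Nuf2* (set 1). *Mki67* (0.15), *Plk1* (0.05), *Aurkb* (0.05), *Cenpa* (0.00) and *Tpx2* (0.00) were among the 19 that did not pass. The level of *Plk1*, scaled otherwise than its fold change, had medians of 111.0 CPM in plasmablasts and 125.7 in germinal center cells. By level, 3 of the 36 lay wholly above, 8 wholly below and 25 overlapped, and the share of all genes wholly apart was not counted.

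**Figure D4:**
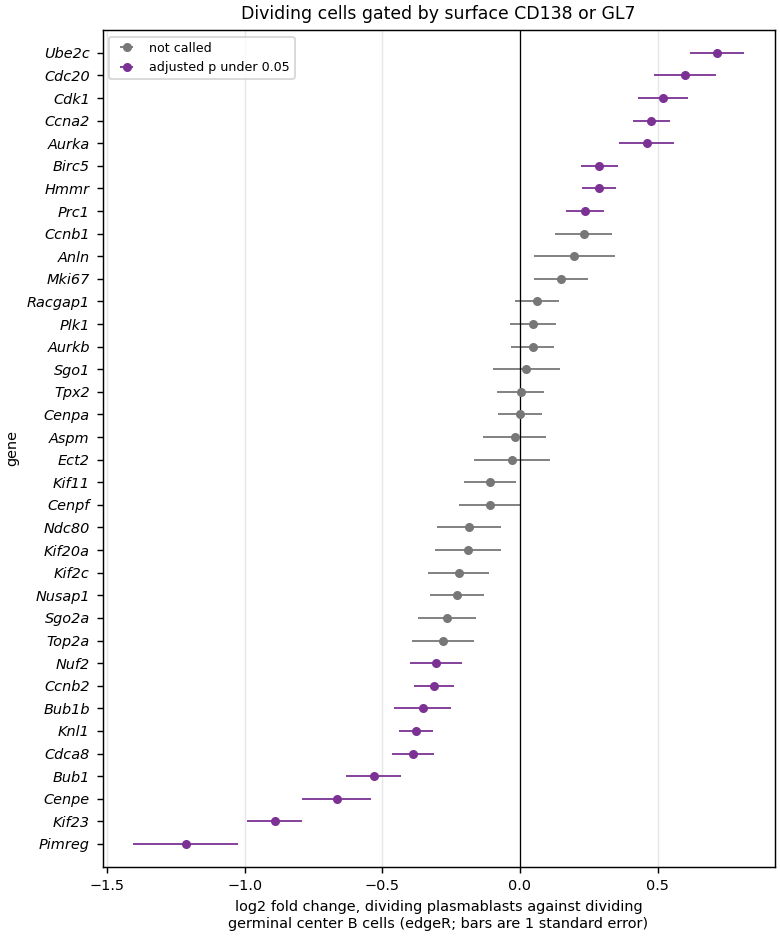
Log2 fold change of each gene between dividing plasmablasts and dividing germinal center B cells gated by surface CD138 or GL7, from edgeR; bars are 1 standard error and coloured points have an adjusted p under 0.05. *Ube2c* is highest at 0.72 and *Pimreg* lowest at -1.21, with 19 genes not called.

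The gated classes also differed in where their cells stood in the cycle. With all dividing cells ranked by how far mitosis genes outweighed replication genes and put in 4 equal bins, the 2 mitosis-rich bins held 55.0 ± 7.82% of gated plasmablasts and 41.6 ± 2.10% of gated germinal center cells with R848, and 60.8 ± 11.3% and 44.1 ± 7.49% with IL-4 (SD, n = 3). By RNA class with R848, these bins held 59.95 ± 5.98% of other cycling cells and 40.94 ± 2.90% of dividing germinal center cells. For dividing plasmablasts it was 55.09 ± 4.88%. The part of these differences in the gene levels was not tested. With the dividing limit at 1%, 9 of the 36 were called, 3 higher and 6 lower. *Ube2c*, *Cdc20* and *Birc5* were then at -0.05, -0.14 and -0.01 and not called, while *Pimreg*, *Kif23*, *Cenpe*, *Cdca8*, *Cdk1* and *Ccna2* were called under each of 9 alternatives.

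Within the 2512 dividing B cells, the 36 genes did not rise at the same point. The 4 bins were set by the share of their other cell cycle UMIs that fell on mitosis rather than replication genes, and 33 of the 36 had their highest mean level in the last bin and 3 (*Ndc80*, *Top2a* and *Aurkb*) in the third. *Ndc80* went from 29.9 CPM in the first bin to 84.7 in the third and 74.6 in the last, so that its last-to-first ratio was 2.49, and *Top2a* had a ratio of 2.64 and *Mki67* of 3.29. At the other end, *Cenpf* went from 11.5 CPM in the first bin to 496.0 in the last, a ratio of 43.1 (40.9 to 46.2 by set), and *Ube2c* from 54.9 to 1632, a ratio of 29.8 (25.7 to 33.1 by set). *Pimreg* had a ratio of 40.7, with 24.3 to 78.7 by set, so it passed *Cenpf* in some sets. *Aspm* was at 24.3 (20.8 to 27.2 by set), *Kif2c* at 21.8 (14.6 to 41.9) and *Plk1* at 20.6 (16.6 to 23.9), while *Cdk1* and *Ccna2* were at 4.72 and 5.17. The order is a description, since the bins come from genes of the same program.

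**Figure D5:**
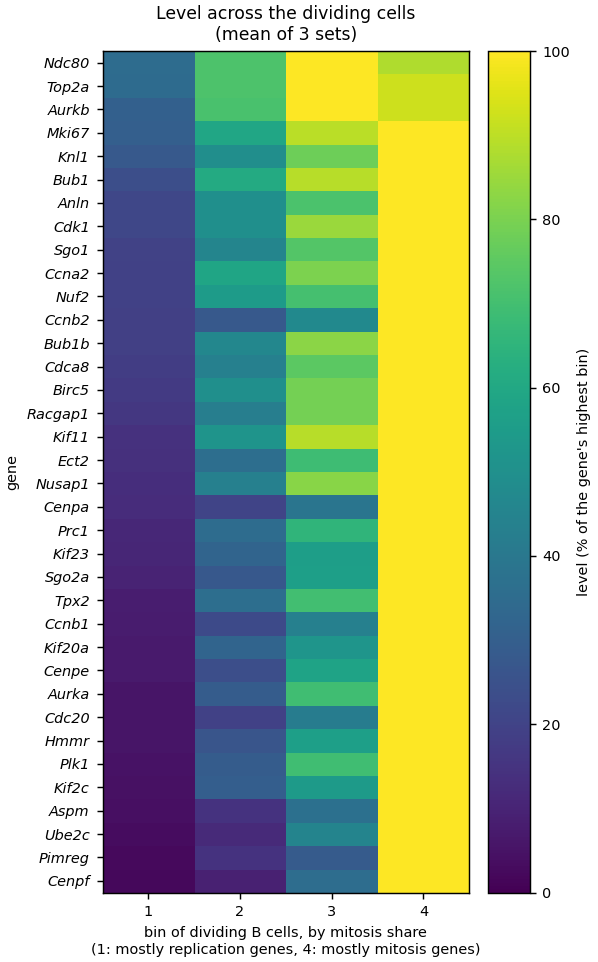
Mean level of each gene across the 4 bins of the dividing B cells, ordered from replication-rich to mitosis-rich cells, as percent of the gene's highest bin (mean of 3 sets). *Ndc80*, *Top2a* and *Aurkb* already peak in the third bin, while *Cenpf* and *Pimreg* are under 3% of their peak in the first.

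The 2 activators of the program were tested in the same comparisons. Across all B cells *Mybl2* fell by 0.83 (SE 0.17, edgeR adjusted p = 0.0273), from 17.94, 18.64 and 15.48 to 11.53, 6.87 and 7.87 CPM, and *Foxm1* fell by 0.47 (SE 0.11, edgeR adjusted p = 0.0425), from 8.98, 9.64 and 8.74 to 7.01, 5.31 and 5.45. Within classes neither passed: *Foxm1* was at -0.26 in naive, 0.17 in germinal center, 0.03 in plasmablast and 0.19 in other cycling cells, and *Mybl2* at 0.16, -0.07, -0.23 and -0.45. In other cycling cells *Mybl2* had 60.01, 65.08 and 56.41 CPM with R848 and 44.29, 41.57 and 41.07 with IL-4, which do not overlap (edgeR adjusted p = 0.237). In dividing germinal center cells *Foxm1* was at 0.20 and *Mybl2* at -0.03, and in dividing plasmablasts at -0.10 and -0.32. Between dividing plasmablasts and dividing germinal center cells by surface antibody, *Foxm1* was higher in plasmablasts by 0.36 (edgeR adjusted p = 0.0401) and *Mybl2* lower, at -0.43 (edgeR adjusted p = 0.0049).

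Other cell cycle genes were tested in the same fits. In all B cells, where 10.3% of all genes were called, of 57 other mitosis genes 39 fell and 0 rose, with the largest changes in *Ncapg2* (-0.80), *Espl1* (-0.78) and *Melk* (-0.77). Of 36 replication genes 16 fell and 0 rose, led by *Clspn* (-0.79), *Cdc6* (-0.72) and *Gins1* (-0.72). Of 30 regulators 6 fell and 1 rose, led by *Cdk6* (-0.92), *Mybl2* (-0.83) and *Wee1* (-0.68), and the gene that rose was *Ccnd3* (0.36), named after its value was seen. In naive cells, where 16.8% of all genes were called, 7 of 26 regulators tested fell, led by *Cdk6* (-1.28), *Ccnd2* (-0.89) and *Wee1* (-0.68), and 3 rose. There, 6.98% of 43 other mitosis genes and 3.03% of 33 replication genes were called, both below that share: 1 of 43 other mitosis genes fell (*Ncapd2*, -0.56) and 2 rose (*Cenpm*, 0.59, and *Nde1*, 0.26), and 1 of 33 replication genes rose (*Uhrf1*, 0.86). In germinal center cells *Ccnd2*, a G1 cyclin, was the 1 gene of these lists that was called, and it fell, with 19.97, 21.06 and 18.86 CPM with R848 and 11.3, 7.802 and 8.985 with IL-4 (edgeR adjusted p = 0.0396). In germinal center cells 0.338% of all genes were called. In the antibody-gated comparison, where 59.5% of all genes were called, 20 of 36 replication genes were lower and 6 higher in dividing plasmablasts (*Rrm2* 1.13, *Uhrf1* -0.99, *Pola1* -0.97). Of the 57 other mitosis genes 43.9% were called, below that share, 17 lower and 8 higher (*Cenpw* 0.86, *Cenpn* -0.64, *Kif15* -0.63), and of 28 regulators tested 13 were lower and 8 higher (*Ccnd2* 3.46, *Ccnd3* -2.28, *Rb1* 1.57).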

How the data were processed

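The 3 deposited libraries hold raw UMI counts per gene, hashtag or surface antibody and cell, deposited by the authors. Per the file headers the counts came from Cell Ranger 6.0.1; the submitters' processing notes give the build as mm10 and list Seurat 4.1.3, with no role. Barcodes had been called as cells before deposit. Treatment came from the hashtag names. The 36 genes, the other lists and the markers were chosen with earlier results of these data known, and any of the 36 may be named; of other lists, up to 3 passing genes per comparison with the largest change, with *Foxm1* and *Mybl2* throughout.

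A cell needed 1 hashtag with at least 64 UMIs and at least 4 times the other plus 1, at least 500 genes and under 10% mitochondrial UMIs. This removed 1567, 943 and 1312 barcodes with both hashtags, 475, 84 and 100 with too few and 206, 142 and 199 by the gene and mitochondrial filter. Doublets of 1 treatment remain, and 145, 44 and 138 non-B cells were left out. Sets shared 219 to 289 barcode sequences pairwise. Clustering (scanpy 1.11.5, Leiden at resolution 1, 2000 variable genes, 30 components, 15 neighbours) left out 9549 genes, among them all cell cycle lists, histones and immunoglobulins, and gave 27 clusters. Antibody gates (CD138 at least 64; GL7 at least 128 with CD138 under 32 and IgD under 64; IgD at least 128 with CD138 and GL7 under 32 UMIs) were set after the antibody counts were seen.

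Sums of counts over the cells of each class, by set and treatment, entered edgeR 4.0.16 in R 4.3.3 (filterByExpr, then TMM and the quasi-likelihood test) over all genes, calls at a Benjamini-Hochberg adjusted p under 0.05. The set was a block for differences between classes and for the antibody-gated comparison only. Both treatments of a set share a library; deviations of same-set sums, over genes at 50 CPM or more, correlated at 0.358 to 0.420 in naive cells, but at -0.0174 to 0.164 in all B cells, 0.059 to 0.292 in germinal center cells, -0.0677 to 0.000708 in plasmablasts and -0.151 to 0.0724 in other cycling cells. Alternatives were DESeq2 1.42.0, no count filter, the block, each set left out, no immunoglobulin genes, looser cell filters, dividing limits of 0.25% and 1%, and antibody classes; leaving out the naive clusters 3 and 10 or the precursor cluster was added after the data were seen. On counts simulated from germinal center cells (9689 genes) the fit called 95 of 100 genes changed 4-fold, 43 of 100 changed 2-fold and 5 of 9489 unchanged. The simulated spread between sets was fixed, the same for every gene, and not estimated from the data.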

Additional observations from a re-analysis of the deposited data

Results flagged for a closer look

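The effect of IL-4 on *Knl1* differed between naive cells and each other class by a test of the difference itself, by 1.34 (germinal center), 1.44 (plasmablasts) and 1.32 (other cycling) on the log2 scale, and that on *Cenpa* by 0.66 between plasmablasts and naive cells. These are differences of log2 ratios, and with R848 the naive level of *Knl1* was 7.94% of that in dividing germinal center cells. Changes in CPM were not compared between classes. The calls were 1, 2 and 1 of the 36 by class, beside 2.76%, 1.86% and 0.497% of 11262 genes. The other cycling call was lost without set 2, and the *Cenpa* call without the block or any 1 set. Naive cells of the 2 treatments lay mostly in different clusters. The dividing share of plasmablasts was higher with IL-4 in 3 of 3 sets, by a mean of 2.47 percentage points, and that of all other B cells lower in 3 of 3. With plasmablasts gated by surface CD138 it was higher in 2 of 3 sets, and in set 3 it was 15.49% with R848 and 15.2% with IL-4. The difference between these effects was not tested.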

How the results depend on the processing

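All 36 genes were below 0 in all B cells under each of the 8 alternatives. The 30 calls there became 34 under DESeq2, 35 without immunoglobulin genes, 32 without a count filter and 23 with the set as a replicate block, and 0 to 19 with 1 set left out. In germinal center cells the 0 calls became 3 with antibody gates (*Cdk1* -0.54, *Cdc20* -0.49, *Racgap1* -0.44, beside 1.97% of genes that fell), where 57.1% of gated cells were in the RNA class. The gate's dividing share was 59.7 ± 5.05% with R848 and 33.1 ± 4.74% with IL-4. For germinal center minus naive cells and for other cycling minus naive cells, the 1 call became 2 under DESeq2, without immunoglobulin genes and at a limit of 0.25%; the second was 0 to 1 with 1 set left out. For plasmablasts minus naive cells, 2 calls became 1 without the replicate block and 1 with any set left out. Across the alternatives of that comparison, a gene not called in the main fit was called in 3 instances. The 17 calls between antibody-gated dividing classes became 9 at a limit of 1%, where *Birc5* (-0.0124), *Cdc20* (-0.14) and *Ube2c* (-0.0493) changed sign. The difference in dividing share turned to 2.67 without set 3 and 0.056 at 0.25% in germinal center cells, and to -1.29 at 1% in plasmablasts (-4.995 to 2.67 and 1.37 to 3.12 with 1 set left out). The cause of these changes was not tested, and some alternatives also held fewer sets or cells. The block changed no other call count by over 1.5 times. In the simulation, which gave every gene the same spread between sets, 2-fold changes were often missed. The SEs of the 36 in germinal center cells ran from 0.08 (*Aurkb*) to 0.20 (*Cenpf*) on the log2 scale. A class with 0 calls is not shown to be unchanged, and exact permutation tests cannot go below p = 0.1.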
